A study of Homo sapiens with 4 samples.

Results

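Matricellular, elastic and proteoglycan matrix genes were followed in day 14 cardiomyocytes made from the human embryonic stem cell line RUES2. The 51 genes were chosen by name among the 23615 genes measured by RNA-seq, with earlier results of these data known. They comprise 4 adhesive glycoproteins, 12 elastic fiber and microfibril genes, 11 matricellular genes, 2 matrilins, 7 hyaluronan-binding proteoglycans and link proteins, 7 small leucine-rich proteoglycans and 8 cell surface heparan sulfate proteoglycans. All 51 had a value above 0 in at least 1 library. The study compared cardiomyocytes made by the cardiac progenitor route (CPC, 2 biological replicates) with cardiomyocytes made from hemogenic endothelium redirected with the tankyrase inhibitor XAV-939, which lowers Wnt/β-catenin signaling (ECsXAV, 2 biological replicates), and asked how alike the cells from the 2 routes are.

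Both routes began with CHIR-99021, an activator of Wnt/β-catenin signaling, before confluence. Activin A at 100 ng/ml with diluted Matrigel followed on day 0, and BMP4 at 5 ng/ml with CHIR-99021 at 1 µM came on day 1. The ECsXAV cultures were changed on day 2 to medium with VEGF at 200 ng/ml, bFGF at 5 ng/ml and BMP4 at 10 ng/ml, and received XAV-939 at 2 µM on day 5. For the CPC route the methods add XAV-939 at 1 µM on day 3 in a subset of experiments, and the labels do not say whether these CPC cultures were among them. The RNA came from unsorted cultures of 1 cell line, so that any cell other than a cardiomyocyte contributed its RNA too, and fewer cells of a type cannot be told apart from less RNA per cell. The sources used here do not say whether the cultures of the 2 groups were grown and sequenced together.

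The extracellular matrix of the heart is more than collagen. Fibrillins, fibulins and elastin build elastic fibers and microfibrils, adhesive glycoproteins such as fibronectin give integrins a substrate, and matricellular proteins such as SPARC and the thrombospondins modulate the contact between cell and matrix without bearing load. Versican binds hyaluronan in the cardiac jelly of the embryonic heart, small leucine-rich proteoglycans such as decorin and lumican bind collagen fibrils, and syndecans and glypicans carry heparan sulfate chains that hold growth factors at the cell surface.

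Levels are given in FPKM, fragments scaled to exon length and to the mapped fragments of the library, so that genes can be compared per length. Fold changes are CPC minus ECsXAV on the log2(FPKM + 1) scale, which understates the change of low genes. They come from a limma fit across the 12398 genes with a mean of at least 1 FPKM, and a gene was called changed at an adjusted p under 0.05 together with a fold change over 2. Cardiomyocyte identity was checked with its defining markers. TNNT2, cardiac troponin T, was at 2453 and 2309 FPKM in the ECsXAV replicates and at 2696 and 2988 FPKM in the CPC replicates, and MYL7, the atrial myosin light chain, was the most abundant gene of the table. Endothelial markers were uneven, with EGFL7 at 12.0 to 16.9 FPKM, KDR at 7.06 to 10.8 FPKM and VWF at 0 to 0.0209 FPKM over the 4 libraries. Of the 9, 5 were lower in both CPC libraries (55.6%, beside 24.6% of all genes above 0 FPKM). Depth ran from 50.1% to 86.9% of that of ECsXAV replicate 1, the deepest library, and was lowest in ECsXAV replicate 2.

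Of the 51 genes, 34 passed the filter on low FPKM and 5 of these were called, that is 14.7% beside a background of 2.15% over all genes tested. The list was chosen with earlier results of these data known. The study had already reported differences in extracellular matrix genes between these groups, so the share is not an independent test. TGFBI, LUM, SPARC and NPNT were lower in CPC cardiomyocytes and THBS4 was higher, where the background was 1.44% for lower and 0.71% for higher. The median log2 fold change of the 34 genes was -0.26, beside -0.0045 over all genes tested. Over all 51 genes, filtered or not, both CPC libraries were below both ECsXAV libraries for 30 (58.8%, background 24.6%) and above both for 9 (17.6%, background 21.9%), and the groups overlapped for the other 12. By limma, 18 of the 34 genes had an unadjusted p under 0.05, beside 2262 of the 12398 genes tested. An adjusted p under 0.05 was reached by 6 of the 34, beside 358 of the 12398. Counts at an unadjusted p under 0.05 given below for subgroups and partners in this fit have the same background of 2262 of 12398. With short RNA genes left out, an alternative chosen after seeing the data, 14 of the 34 had a limma adjusted p under 0.05 (over all genes 968 in place of 358). Among them were THBS1 (limma adjusted p = 0.0106), GPC3 (0.00678), GPC4 (0.0237) and MATN3 (0.0111). Their folds stayed under 2 on the log2(FPKM + 1) scale, though the FPKM means of MATN3 were 2.94-fold apart. By limma, none of the 51 was called without a filter, beside 20 of 18772 over all genes. Fewer of the 51 were called with any 1 library left out than with all 4 libraries. A group left with 1 library was assumed to vary like the other group, and the log2 fold changes stayed between -3.81 and -3.30 for TGFBI, -2.91 and -2.56 for LUM, -1.65 and -1.47 for SPARC, -1.26 and -0.99 for NPNT and 0.96 and 1.27 for THBS4.

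**Figure D1:**
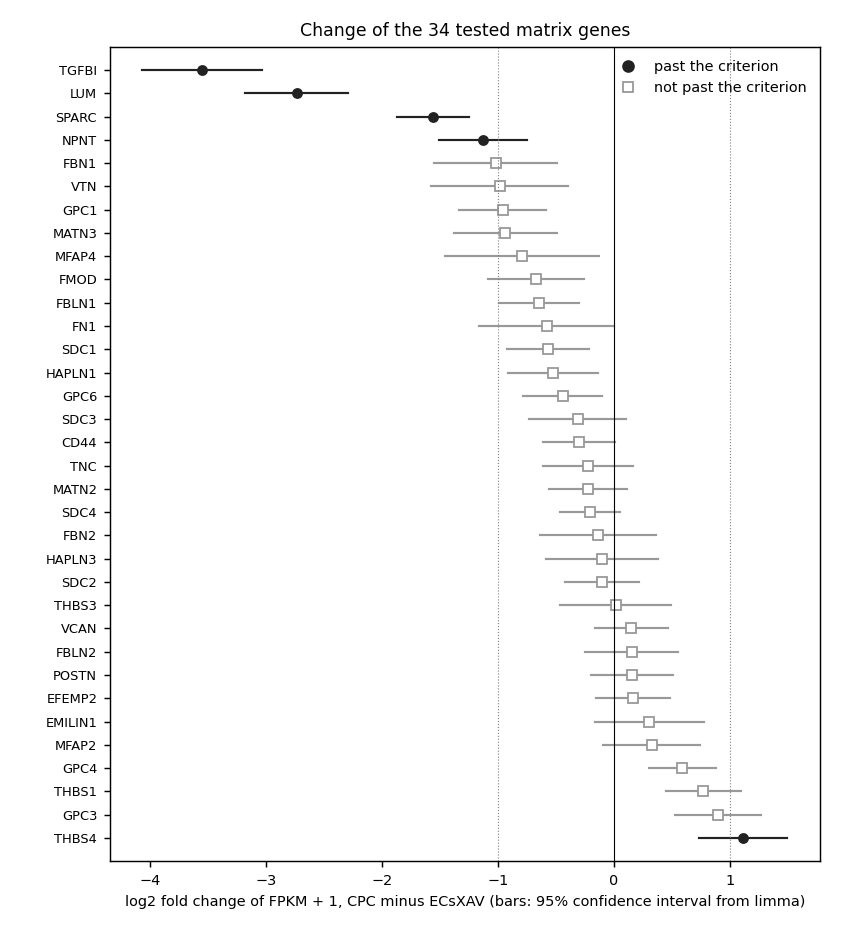
Log2 fold change (CPC minus ECsXAV, log2(FPKM + 1) scale) of the 34 genes that passed the filter, with 95% confidence intervals from limma. TGFBI and LUM stand farthest to the left, at -3.55 and -2.74, and THBS4 is farthest to the right at 1.11.

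Some lists of cell type markers had lower sums in CPC, while others overlapped or were higher. The summed FPKM of 8 stromal fibroblast markers was 177 and 210.4 in the ECsXAV replicates and 99.0 and 98.6 in the CPC replicates. Most of this sum was the collagens COL1A1, COL1A2 and COL3A1, which are matrix genes themselves, and 4 of the 8 markers were under the filter. COL1A1 and COL3A1 were called lower in CPC, and 7 of the 8 were lower in both CPC libraries (87.5%, background 24.6%). PDGFRA was the exception and overlapped, and TCF21 was at most 0.0846 FPKM. The sum of 6 smooth muscle markers was 315 and 287 FPKM against 173 and 198 FPKM, with TAGLN called lower in CPC, CNN1 also lower, LMOD1 and MYH11 higher in both CPC libraries without a call, and ACTA2 and SMTN overlapping. The sum of 9 hepatic and endoderm markers was 43.2 and 35.2 FPKM against 16.3 and 18.5 FPKM, with 8 of 9 lower in both CPC libraries (88.9%, background 24.6%). AFP, APOA2 and TTR were called, and FGB was listed at 0 in both CPC libraries. ALB, albumin, was the exception and overlapped, at 0.177 and 0.132 FPKM against 0.0763 and 0.194 FPKM. APOA1, the most abundant of the 9, was at 20.6 and 17.9 FPKM against 15.9 and 17.8 FPKM (limma adjusted p = 0.530). FOXA2 was at most 0.123 FPKM. Epicardial markers summed to 180 and 225 FPKM against 83.3 and 129 FPKM, nearly all of it KRT19. WT1 and TBX18 were lower in both CPC libraries too and ALDH1A2 was higher, all 3 under the filter, with WT1 between 0.0234 and 0.142 FPKM. UPK3B, MSLN and BNC1 overlapped, and KRT19 was not called (limma adjusted p = 0.144). Thus 3 of the 7 epicardial markers were lower in both CPC libraries (42.9%, background 24.6%). Sums of the cardiomyocyte markers overlapped, at 15492 and 14683 FPKM in ECsXAV and 13765 and 14529 FPKM in CPC. Within that list MYH6, the atrial myosin heavy chain, was called higher in CPC (855 and 857 against 2070 and 1901 FPKM, log2 fold change 1.21, limma adjusted p = 0.0358) and MYBPC3, a myosin-binding protein, was called lower (401 and 381 against 198 and 181 FPKM, log2 fold change -1.04, limma adjusted p = 0.0327). In the remaining lists the endothelial sum was 27.5 and 28.7 against 25.1 and 23.6 FPKM. The chondrogenic sum, mostly COL2A1, was 168 and 165 against 288 and 309 FPKM, and none of its 7 markers was called. COL2A1 and COL11A2 were higher in both CPC libraries (28.6%, background 21.9%). COL9A1 and COL9A2 were lower in both (28.6%, background 24.6%), and the other 3 overlapped. The neural sum, mostly NCAM1, was 89.6 and 80.6 against 67.1 and 74.5 FPKM. The skeletal myogenic sum was below 1 FPKM in each library, with MYF5, MYF6 and PAX7 listed at 0. TUBB3 was the called gene of the neural list, at 3.69 and 3.39 FPKM in ECsXAV and 0.498 and 0.650 FPKM in CPC (log2 fold change -1.53, limma adjusted p = 0.0199), while SOX2 and PAX6 were higher in both CPC libraries, under the filter. The part of these cell types in the changes of the matrix genes was not tested.

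The adhesive glycoproteins were all lower in both CPC libraries (background 24.6%), and 2 of the 4 were called (50%, background 2.15%). TGFBI encodes a secreted protein that binds collagens and integrins and is induced by TGFβ. It lies on chromosome 5 (135364677 to 135399507, GRCh37, plus strand, protein coding). TGFBI was at 13.7 and 20.0 FPKM in the ECsXAV replicates and at 0.500 and 0.500 FPKM in the CPC replicates. The ECsXAV libraries were thus far above the CPC libraries, and the means were 33.8-fold apart. The log2 fold change was -3.55 (SE 0.20, 95% confidence interval -4.07 to -3.04, limma adjusted p = 0.00676), the largest among the 34 genes tested.

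NPNT encodes nephronectin, a basement membrane ligand of integrin α8β1. The gene spans 106815932 to 106925184 on the plus strand of chromosome 4 (GRCh37). NPNT was at 27.5 and 23.8 FPKM in the ECsXAV replicates and at 12.4 and 10.1 FPKM in the CPC replicates, without overlap. The means were 2.29-fold apart, with a log2 fold change of -1.13 (SE 0.15, limma adjusted p = 0.0382).

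FN1, fibronectin, was the most abundant adhesive gene. It was at 80.5 and 88.7 FPKM in ECsXAV and at 69.6 and 45.3 FPKM in CPC, so that the CPC replicates differed from each other more than the nearest libraries of the 2 groups did. Its log2 fold change of -0.58 (95% confidence interval -1.16 to 0.00041) did not pass the test (limma adjusted p = 0.274). VTN encodes vitronectin, a plasma protein made mainly by the liver. It was at 2.69 and 1.96 FPKM in ECsXAV and at 0.423 and 0.959 FPKM in CPC, a log2 difference of -0.98 that did not pass either (limma adjusted p = 0.112), beside the hepatic markers given above. Summed over the 4 genes the FPKM in CPC was 0.540 times that in ECsXAV, and 0.277 times without FN1.

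The stretches 250 bases upstream of the annotated start are shown for the called genes that have a RefSeq entry (GRCh38.p14, which differs from the build of the FPKM), because these are the genes whose level differed between the routes. LUM is named only. Both strands were searched for a GC box with the letters GGGCGG and an AP-1 site with the letters TGANTCA. The other motifs were a TEAD core (CATTCC) and a box known by the name CCAAT. The TATA box was read as the letters TATAAA. Capitals mark the matches. No motif is contained in another. The windows are TGFBI, chr5:136028738-136028987, plus strand, SPARC, chr5:151686916-151687165, minus strand, NPNT, chr4:105895221-105895470, plus strand, and for THBS4 the 2 annotated starts, chr5:79991082-79991331 and chr5:80035773-80036022, plus strand, each read 5′ to 3′.
TGFBI: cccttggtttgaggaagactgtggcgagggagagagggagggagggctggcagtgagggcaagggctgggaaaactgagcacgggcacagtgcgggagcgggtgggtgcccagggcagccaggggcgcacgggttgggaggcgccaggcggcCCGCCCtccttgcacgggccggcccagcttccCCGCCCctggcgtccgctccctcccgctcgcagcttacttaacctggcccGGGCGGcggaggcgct
NPNT: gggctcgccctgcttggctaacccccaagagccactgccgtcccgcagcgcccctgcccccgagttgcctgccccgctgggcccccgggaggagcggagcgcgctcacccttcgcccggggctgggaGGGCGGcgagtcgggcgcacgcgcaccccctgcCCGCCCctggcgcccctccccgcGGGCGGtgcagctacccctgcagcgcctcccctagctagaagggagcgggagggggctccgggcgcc
SPARC: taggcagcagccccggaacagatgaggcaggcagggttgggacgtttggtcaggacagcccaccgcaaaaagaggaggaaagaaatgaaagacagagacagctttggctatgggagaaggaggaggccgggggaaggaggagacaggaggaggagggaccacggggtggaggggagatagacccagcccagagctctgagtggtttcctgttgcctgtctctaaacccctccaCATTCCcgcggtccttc
THBS4, first start: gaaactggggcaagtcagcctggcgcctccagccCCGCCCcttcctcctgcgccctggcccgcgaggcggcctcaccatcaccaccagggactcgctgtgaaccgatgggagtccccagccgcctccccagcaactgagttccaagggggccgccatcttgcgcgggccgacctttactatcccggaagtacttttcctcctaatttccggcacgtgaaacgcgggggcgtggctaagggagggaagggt
THBS4, second start: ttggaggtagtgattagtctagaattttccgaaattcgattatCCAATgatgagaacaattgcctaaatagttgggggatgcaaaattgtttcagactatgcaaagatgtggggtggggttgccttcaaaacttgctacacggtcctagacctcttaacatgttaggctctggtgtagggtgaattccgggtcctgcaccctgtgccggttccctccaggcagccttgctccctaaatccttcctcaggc
The TGFBI and NPNT windows each hold 3 GC boxes and none of the other motifs. The SPARC window holds 1 TEAD core close to the start. The THBS4 windows hold 1 GC box at the first start and 1 CCAAT box at the second. Over the 51 genes, 40 had an entry, with 48 windows. A GC box was in 29 of these (60.4%) against 42.6% of all 35116 windows, a TEAD core in 9 (18.8%) against 11.9%, a TATA box in 8 (16.7%) against 10.7%, a CCAAT box in 11 (22.9%) against 32.0%, and an AP-1 site in 2 (4.17%) against 6.57%. A match describes letters only.

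Among the matricellular genes, SPARC fell and THBS4 rose in CPC relative to ECsXAV. SPARC encodes osteonectin, a calcium- and collagen-binding glycoprotein needed for collagen assembly (chromosome 5, 151040657 to 151066536, GRCh37, minus strand). It was the most abundant gene of its group, at 106 and 121 FPKM in the ECsXAV replicates and at 36.8 and 38.8 FPKM in the CPC replicates. Replicates lay close together and the means were 3.01-fold apart, with a log2 fold change of -1.56 (SE 0.12, 95% confidence interval -1.87 to -1.25, limma adjusted p = 0.0130). SPARC made up 77.9% of the summed FPKM of the 11 matricellular genes in ECsXAV and 42.7% in CPC. The sum in CPC was 0.607 times that in ECsXAV, but 1.58 times without SPARC, the next most abundant genes being THBS1 and THBS4, both higher in CPC.

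Thrombospondins are large multimeric glycoproteins that bind calcium, integrins and proteoglycans, and THBS4 is the family member best known from striated muscle and tendon. THBS4 (chromosome 5, 79287134 to 79379110, GRCh37, plus strand) was at 6.69 and 7.29 FPKM in the ECsXAV replicates and at 18.3 and 14.5 FPKM in the CPC replicates. All CPC values were above all ECsXAV values and the means were 2.34-fold apart, with a log2 fold change of 1.11 (SE 0.15, limma adjusted p = 0.0397).

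THBS1, which activates latent TGFβ, was at 11.3 and 12.5 FPKM in ECsXAV and at 22.4 and 19.6 FPKM in CPC. Its groups did not overlap either, but the log2 difference of 0.77 missed the threshold (limma adjusted p = 0.0549). THBS3 overlapped, at 3.43 and 3.42 FPKM against 4.22 and 2.83 FPKM, and THBS2 and COMP, the cartilage thrombospondin, were below 0.2 FPKM in each library. Within the family, THBS4 made up 31.1% ± 0.14 (SD, n = 2) of the summed FPKM in ECsXAV and 39.8% ± 0.99 in CPC, and THBS3 15.3% ± 0.88 against 8.50% ± 1.22, while THBS1 held 52.8% ± 0.86 and 51.3% ± 2.15.

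POSTN, periostin, a marker of valve mesenchyme and activated fibroblasts, was at 7.08 and 7.0 FPKM in ECsXAV and at 8.83 and 7.15 FPKM in CPC, a log2 difference of 0.15 (95% confidence interval -0.20 to 0.51, limma adjusted p = 0.616). TNC, tenascin C, was at 1.42 and 1.57 FPKM against 1.05 and 1.23 FPKM, with a log2 difference of -0.22 (limma adjusted p = 0.498). SPP1, osteopontin, was low throughout, at 0.592 and 0.653 FPKM in ECsXAV and at 0.0400 and 0.0435 FPKM in CPC, and was not tested because its mean was under 1 FPKM. Also under that filter were TNXB, which is entered at several loci and whose highest entry was between 0.437 and 0.663 FPKM, and SPARCL1, a relative of SPARC, at most 0.0385 FPKM.

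**Figure D2:**
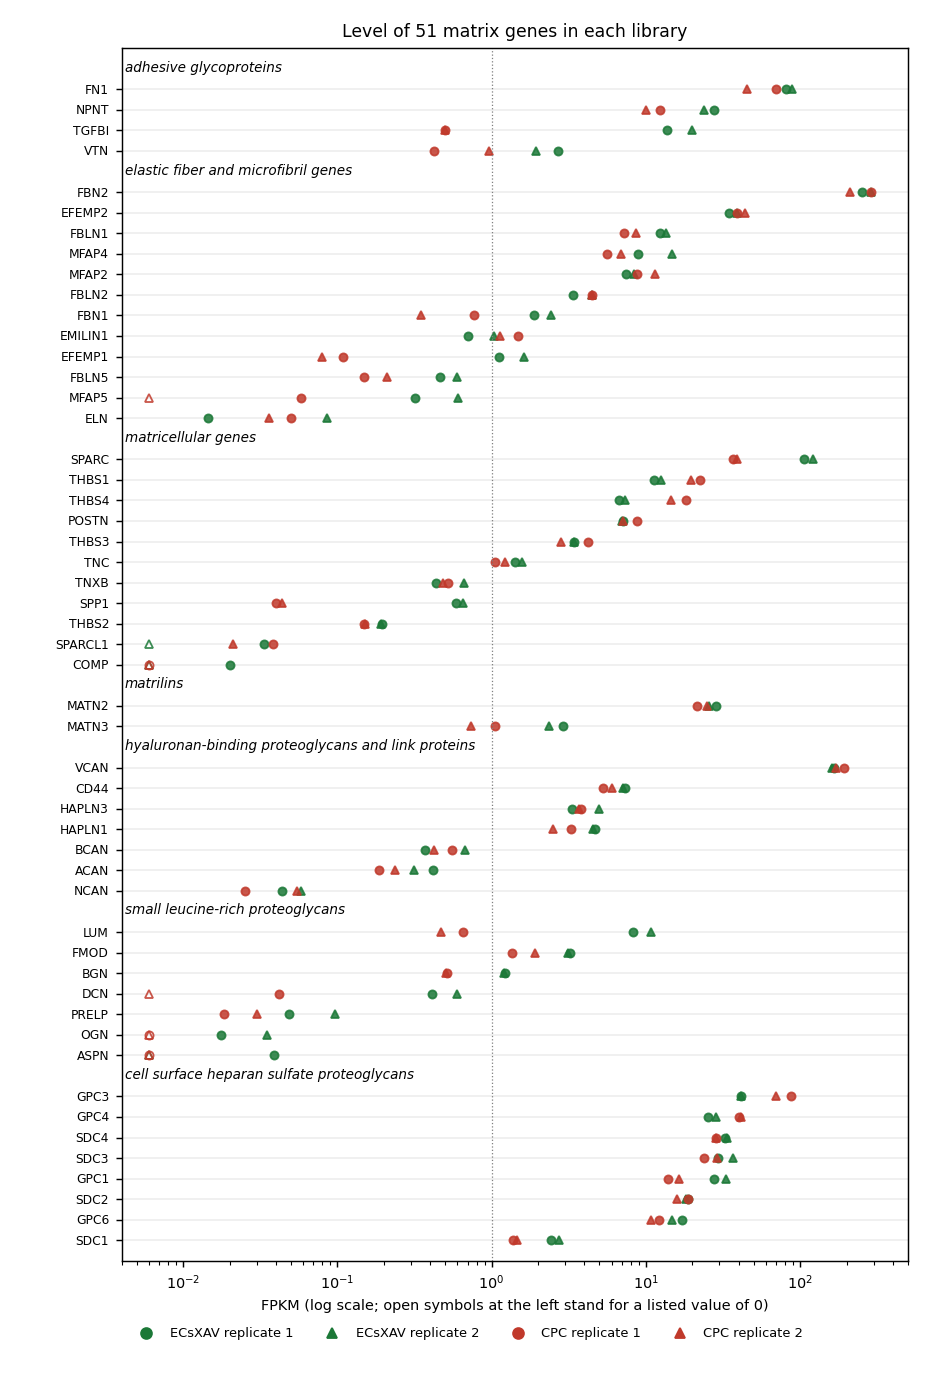
FPKM of the 51 genes in each of the 4 libraries on a log scale, grouped by role, with open symbols for a listed value of 0. TGFBI, LUM and SPARC show the ECsXAV libraries above the CPC libraries, THBS4 the reverse, and the VCAN and FBN2 points lie farthest to the right.

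Elastic fiber and microfibril genes gave no call among the 8 tested of 12 (limma, 3 at an unadjusted p under 0.05). FBN2, fibrillin 2, the fibrillin of embryonic microfibrils, was the most abundant of the 51 genes and the 124th most abundant gene of the table. It was at 253 and 288 FPKM in ECsXAV and at 287 and 210.1 FPKM in CPC. The groups overlapped, with a log2 difference of -0.14 (95% confidence interval -0.64 to 0.36, limma adjusted p = 0.774) that turned to 0.036 with quantile normalization and to 0.088 without CPC replicate 2. FBN2 held 99.2% ± 0.07 of the summed fibrillin FPKM in ECsXAV and 99.8% ± 0.07 in CPC. FBN1, the fibrillin mutated in Marfan syndrome, was at 1.88 and 2.42 FPKM in ECsXAV and at 0.770 and 0.350 FPKM in CPC, a log2 difference of -1.02 that missed the threshold (limma adjusted p = 0.0849) and passed it when short RNA genes were left out (adjusted p = 0.0124).

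Elastin itself was barely detected, with ELN between 0.0144 and 0.0852 FPKM. Of the fibulins, which bridge elastin and microfibrils, EFEMP2 (fibulin 4) was the most abundant at 34.8 and 39.0 FPKM in ECsXAV and 39.3 and 43.8 FPKM in CPC, a log2 difference of 0.17 (limma adjusted p = 0.540). Its coding transcript NM_016938 was at 9.96 and 12.3 FPKM against 15.8 and 19.7 FPKM, the rest being assigned to a noncoding transcript. FBLN1 was at 12.4 and 13.6 FPKM against 7.24 and 8.69 FPKM, lower in both CPC libraries without passing the test (log2 difference -0.65, limma adjusted p = 0.0870). FBLN2 overlapped, between 3.38 and 4.51 FPKM.

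FBLN5 and EFEMP1 were under the filter and lower in both CPC libraries. FBLN5 was at 0.465 and 0.593 FPKM against 0.150 and 0.210 FPKM. EFEMP1 was at 1.13 and 1.62 FPKM against 0.109 and 0.0794 FPKM, with means 14.5-fold apart. In shares of the fibulin sum, EFEMP2 with its noncoding transcript was at 66.2% ± 0.63 in ECsXAV and 76.6% ± 0.13 in CPC, and FBLN1 at 23.4% ± 0.64 and 14.7% ± 0.75.

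The microfibril-associated genes did not move as 1 group. MFAP4 was at 8.84 and 14.9 FPKM in ECsXAV and at 5.62 and 6.88 FPKM in CPC, and MFAP5 at 0.320 and 0.605 FPKM against 0.0582 and 0 FPKM. MFAP2 lay the other way, at 7.42 and 8.32 FPKM against 8.80 and 11.5 FPKM, as did EMILIN1, an elastic fiber glycoprotein, at 0.703 and 1.04 FPKM against 1.48 and 1.14 FPKM. None of these passed the test, with limma adjusted p-values of 0.206 for MFAP4, 0.383 for MFAP2 and 0.463 for EMILIN1, and MFAP5 was not tested.

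Both matrilins, adaptor proteins of filamentous matrix networks, were lower in both CPC libraries (background 24.6%) without a call. MATN2 was at 28.6 and 25.6 FPKM in ECsXAV and at 21.3 and 24.8 FPKM in CPC (log2 difference -0.22, limma adjusted p = 0.450). MATN3, best known from cartilage, was at 2.90 and 2.35 FPKM against 1.05 and 0.737 FPKM (log2 difference -0.94, limma adjusted p = 0.0706). The summed FPKM in CPC was 0.807 times that in ECsXAV with MATN2 and 0.340 times without it.

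Versican dominated the hyaluronan-binding genes in both groups. VCAN was at 165 and 162 FPKM in ECsXAV and at 192 and 171 FPKM in CPC. The CPC libraries were slightly above, but the log2 difference was 0.15 (95% confidence interval -0.17 to 0.47, limma adjusted p = 0.584). VCAN held 99.4% of the summed FPKM of the 4 hyaluronan-binding lecticans in ECsXAV and 99.6% in CPC, with ACAN (aggrecan), BCAN and NCAN below 1 FPKM in each library.

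Link proteins and CD44 tie proteoglycans and cells to hyaluronan, and none of the 3 measured here passed the test (limma, 1 at an unadjusted p under 0.05). The link protein HAPLN1 was at 4.67 and 4.51 FPKM in ECsXAV and at 3.29 and 2.52 FPKM in CPC (log2 difference -0.53, limma adjusted p = 0.160). CD44, the main hyaluronan receptor, was at 7.27 and 7.13 FPKM against 5.29 and 6.03 FPKM (log2 difference -0.30, limma adjusted p = 0.282). HAPLN3, another link protein, overlapped at 3.34 and 4.96 FPKM against 3.78 and 3.68 FPKM. HAPLN1 lies 55.5 kb from VCAN on chromosome 5 and HAPLN3 lies 1.94 kb from ACAN on chromosome 15 (GRCh37). The sum of the 7 genes was 1.08 times as high in CPC as in ECsXAV, and 0.772 times without VCAN.

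Enzymes that make hyaluronan or trim heparan sulfate lie outside the 51 genes, and 3 of them were called. HAS2, the synthase of hyaluronan in the developing heart, was at 8.52 and 10.9 FPKM in ECsXAV and at 64.0 and 40.2 FPKM in CPC. All CPC values were above the ECsXAV values (log2 fold change 2.28, SE 0.25, limma adjusted p = 0.0285). SULF1 and SULF2 encode secreted sulfatases that remove 6-O-sulfate from heparan sulfate, and both fell in CPC. SULF1 was at 2.14 and 2.48 FPKM in ECsXAV against 0.233 and 0.159 FPKM in CPC (log2 fold change -1.47, limma adjusted p = 0.0265), and SULF2 at 4.84 and 5.05 FPKM against 0.858 and 1.16 FPKM (log2 fold change -1.57, limma adjusted p = 0.0191). Of the 43 genes of glycosaminoglycan synthesis and turnover listed, 33 were tested and these 3 were called (9.09%, background 2.15%). The most abundant were CHPF, a chondroitin polymerizing factor, and EXTL3, a heparan sulfate initiation enzyme, which did not pass the test (limma adjusted p = 0.921 and 0.396).

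**Figure D3:**
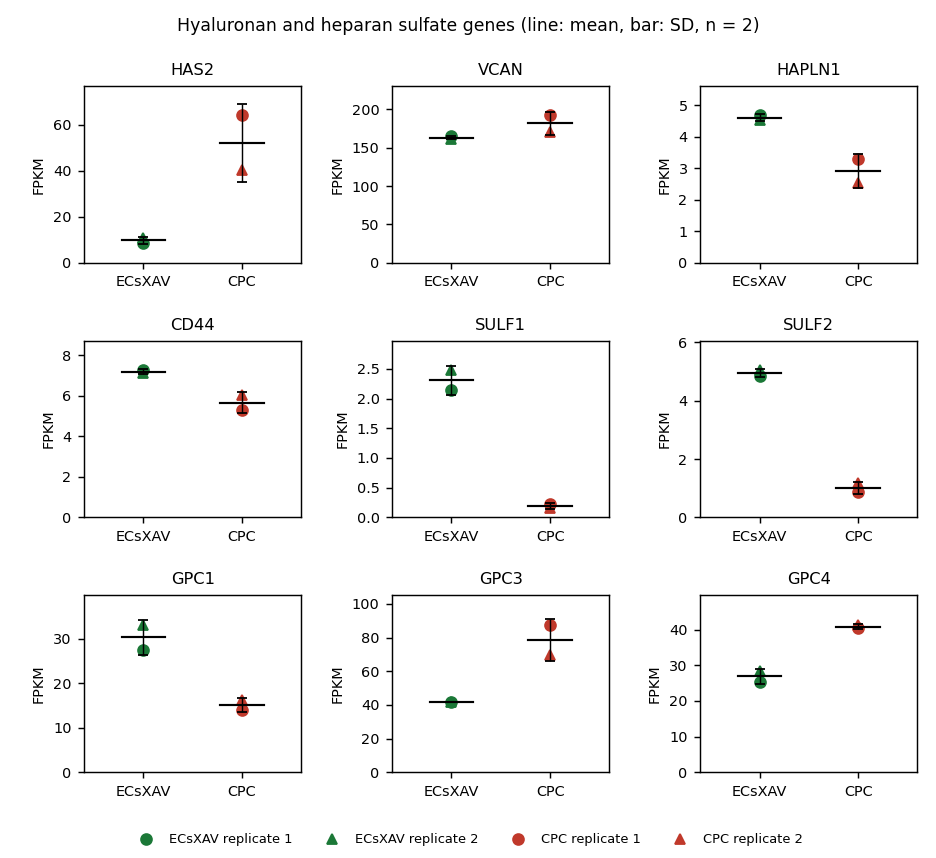
FPKM of 9 hyaluronan and heparan sulfate genes by library on linear axes from 0, with the mean as a line and the SD as a bar (n = 2). HAS2 is at 64.0 and 40.2 FPKM in CPC and at 8.52 and 10.9 FPKM in ECsXAV, while SULF1 and SULF2 lie the other way.

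Small leucine-rich proteoglycans were low in CPC cultures. LUM encodes lumican, which binds collagen fibrils and sets their diameter (chromosome 12, 91496406 to 91505271, GRCh37, minus strand). It was at 8.21 and 10.7 FPKM in the ECsXAV replicates and at 0.652 and 0.473 FPKM in the CPC replicates. The groups were far apart, with means 16.8-fold apart and a log2 fold change of -2.74 (SE 0.17, 95% confidence interval -3.18 to -2.29, limma adjusted p = 0.00909). FMOD, fibromodulin, was at 3.25 and 3.11 FPKM against 1.36 and 1.91 FPKM and did not pass the test (log2 difference -0.67, limma adjusted p = 0.119).

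The other 5 were under the filter. DCN, decorin, which binds collagen and TGFβ and lies 29.0 kb from LUM, was at 0.410 and 0.600 FPKM in ECsXAV and at 0.0420 and 0 FPKM in CPC. BGN, biglycan, was at 1.23 and 1.21 FPKM against 0.510 and 0.505 FPKM. OGN, PRELP and ASPN were at most 0.0964 FPKM in any library. Thus 6 of the 7 were lower in both CPC libraries (85.7%, background 24.6%) and ASPN was above 0 in 1 ECsXAV library only. Their summed FPKM in CPC was 0.190 times that in ECsXAV, and 0.437 times without LUM.

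Cell surface heparan sulfate proteoglycans were all above the filter, and none of the 8 met both parts of the criterion (limma, 5 at an unadjusted p under 0.05). The glypicans, which are anchored by a lipid, differed in direction. GPC1 was at 27.6 and 33.2 FPKM in ECsXAV and at 13.9 and 16.3 FPKM in CPC. Its groups did not overlap and its limma adjusted p was 0.0485. The difference of -0.96 on the log2(FPKM + 1) scale is short of a 2-fold change, while the FPKM means were 2.01-fold apart. With a pseudocount of 0.1 GPC1 met the criterion.

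GPC3, the glypican mutated in Simpson-Golabi-Behmel syndrome, lay the other way, at 41.5 and 41.5 FPKM in ECsXAV and at 87.6 and 69.9 FPKM in CPC. Its log2 difference of 0.90 (95% confidence interval 0.53 to 1.27) missed the threshold with a limma adjusted p of 0.0542. GPC4, its neighbor at 120 kb on chromosome X, was at 25.4 and 28.4 FPKM against 40.4 and 41.4 FPKM (log2 difference 0.59, limma adjusted p = 0.0750). GPC6 was at 17.2 and 14.7 FPKM against 12.1 and 10.8 FPKM (log2 difference -0.44, limma adjusted p = 0.176). For all 4 glypicans the groups did not overlap, with GPC1 and GPC6 lower (background 24.6%) and GPC3 and GPC4 higher in CPC (background 21.9%). GPC3 made up 36.2% ± 1.34 of the summed FPKM of the 4 in ECsXAV and 53.7% ± 4.51 in CPC, while GPC1 made up 26.4% ± 2.47 and 10.4% ± 1.92.

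**Figure D4:**
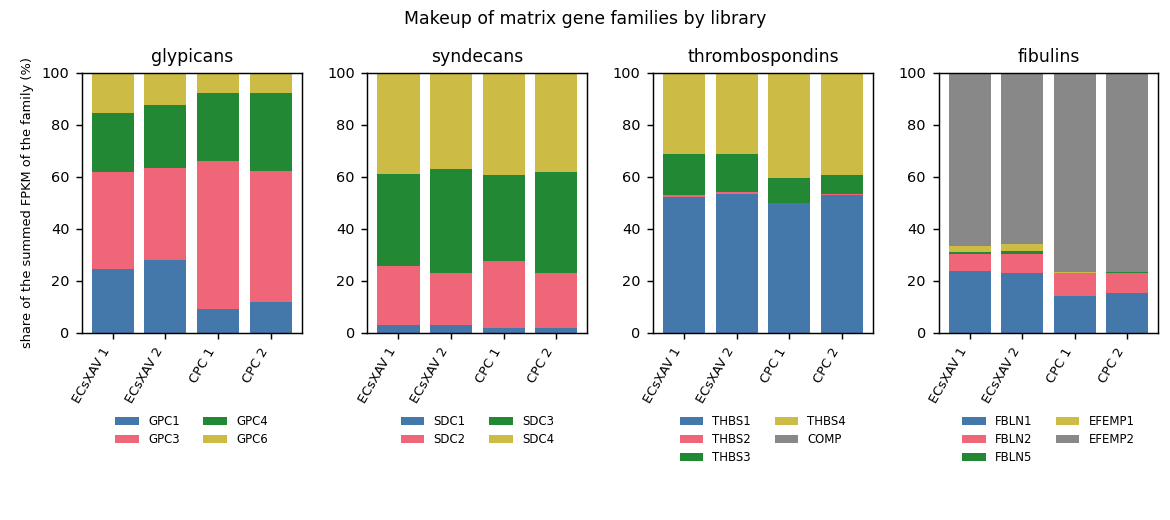
Share (%) of each gene in the summed FPKM of its family by library, for glypicans, syndecans, thrombospondins and fibulins. On average GPC3 holds 36.2% of the glypican sum in ECsXAV and 53.7% in CPC, GPC1 26.4% and 10.4%, while SDC1 holds 2.97% and 1.93% of the syndecan sum.

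Syndecans, the transmembrane heparan sulfate proteoglycans, are represented by 4 genes. SDC4 was at 32.4 and 33.5 FPKM in ECsXAV and at 28.4 and 28.5 FPKM in CPC (log2 difference -0.21, 95% confidence interval -0.47 to 0.054). SDC3 was at 29.5 and 36.6 FPKM against 23.9 and 28.9 FPKM (log2 difference -0.31, 95% confidence interval -0.73 to 0.11). SDC2 overlapped, at 18.8 and 18.2 FPKM against 18.7 and 15.8 FPKM. SDC1, the syndecan of epithelia, was the least abundant, at 2.44 and 2.74 FPKM against 1.39 and 1.45 FPKM, with a log2 difference of -0.57 that did not pass the test (limma adjusted p = 0.122). The sum of the 8 syndecans and glypicans was 1.09 times as high in CPC as in ECsXAV, and 0.879 times without GPC3.

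Other genes of the same pathways showed how the 51 compare with their partners. Of 102 listed partners 64 were tested, and the 38 others were under the filter. The 5 called, 3 lower and 2 higher in CPC, were 7.81% of the partners tested. The share was 14.7% for the 34 tested among the 51 and 2.15% over all genes tested. CTGF, a matricellular growth factor-binding protein, was at 23.2 and 29.9 FPKM in ECsXAV and at 6.83 and 7.09 FPKM in CPC (log2 fold change -1.78, limma adjusted p = 0.0163). SPOCK3, a SPARC-related proteoglycan, was at 0.348 and 0.418 FPKM against 5.35 and 3.63 FPKM (log2 fold change 1.97, limma adjusted p = 0.0231). These were the 2 calls among 10 tested of 22 other matricellular genes (20%, background 2.15%). Of the 22, FSTL1, a secreted relative of SPARC, was the most abundant at 205 and 202 FPKM against 132 and 144 FPKM (limma adjusted p = 0.0904).

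Of 20 microfibril and crosslinking partners 15 were tested and none called (limma, 8 at an unadjusted p under 0.05). LTBP1, which binds latent TGFβ to fibrillin, was at 78.2 and 74.5 FPKM in ECsXAV and at 143 and 116 FPKM in CPC (limma adjusted p = 0.0765), and EMILIN2 at 106 and 100.1 FPKM against 70.9 and 79.9 FPKM (limma adjusted p = 0.146). Of 17 other proteoglycans 6 were tested and none called (limma, 1 at an unadjusted p under 0.05). By limma, no partner was called without a filter. Fewer partners were called with any 1 library left out than with all 4 libraries, again with the spread of the lone library assumed. The log2 fold changes then stayed between 1.95 and 2.61 for HAS2, -1.96 and -1.61 for CTGF and 1.74 and 2.20 for SPOCK3.

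Transcript shares were read for the 11 genes with several transcripts and a mean of at least 5 FPKM. For VCAN, NM_001164097 made up 66.5% and 71.2% of the gene's FPKM in the ECsXAV replicates and 74.0% and 84.5% in the CPC replicates, and NM_004385 made up 33.3% and 28.4% against 25.8% and 10.5%. The CPC replicates differed by more than the groups' nearest libraries did. FBLN1 was led by NM_001996, with 64.8% and 66.1% in ECsXAV and 54.8% and 61.6% in CPC. For EFEMP2, the coding transcript NM_016938 made up 28.7% and 31.4% in ECsXAV and 40.3% and 45.0% in CPC, without overlap, the rest being the noncoding NR_037718. The leading FN1 transcript held 67.4% to 73.3% in the 4 libraries. For MFAP2, POSTN and MATN2 the share of the leading transcript varied widely between replicates, from 0.537% to 99.5%, from 1.65% to 58.5% and from 54.0% to 99.5% over the 4 libraries, so no group difference was read from them.

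**Figure D5:**
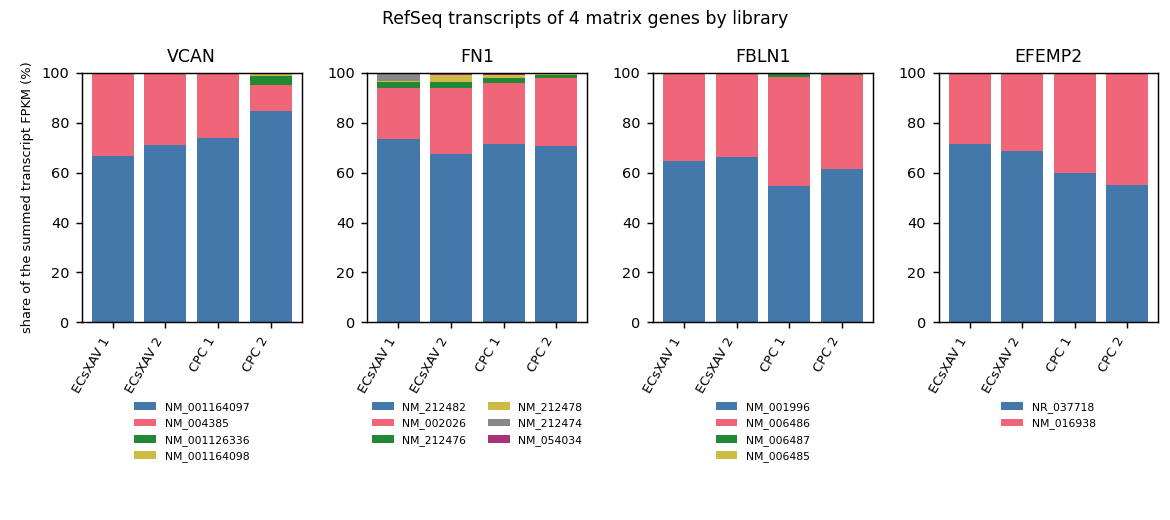
Share (%) of each transcript in the FPKM of its gene, by library, for VCAN, FN1, FBLN1 and EFEMP2. The leading FN1 transcript stays between 67.4% and 73.3%, and NM_016938 of EFEMP2 takes 28.7% and 31.4% in ECsXAV and 40.3% and 45.0% in CPC.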

How the data were processed

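RNA-seq of poly-A RNA (TruSeq) was available for 4 unsorted day 14 cultures, with 2 biological replicates in each group as the methods state. The authors deposited FPKM per gene and per transcript, computed with Cufflinks 2.1.1 and UCSC annotation on hg19. The submitters' processing notes name TopHat 1.3.3, while the methods name Gsnap for the counts. FPKM correct for length and mapped fragments. The study's own test was on read counts, which were not analysed here. The log2(FPKM + 1) values were instead fitted with limma 3.58.1 in R 4.3.3, with a trended variance prior, Benjamini-Hochberg adjustment over all genes tested and a filter of a mean of at least 1 FPKM. An exact permutation test of 2 against 2 cannot go below 0.333 (two-sided), so sums and shares are given without a test. Summaries used pandas 2.3.3 and NumPy 2.4.6 under Python 3.11.15, and matplotlib 3.10.9 drew the plots. Relative depth came from the smallest FPKM steps of low genes, and lower depth makes low FPKM coarser. Coordinates were taken from GENCODE 44 lifted to GRCh37. The limma step was tested on simulated data. The 51 genes and the partner and marker lists were chosen with earlier results of these data known. Every one of the 51 could be named, and of each partner and marker list the called genes and up to 3 of the most abundant were, and a few further markers were picked once their values were known. The alternatives were a pseudocount of 0.1, other filters, other scalings, no trend, the replicate block, isoform sums, each library left out, sums without the top gene and, added after seeing the data, short RNA genes left out.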

Additional observations from a re-analysis of the deposited data

How the results depend on the processing

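The number of calls moved with the filter and with single libraries, while the log2 fold changes of the 5 called genes kept their direction. The 5 called among the 51 became 0 without a filter and 0 to 3 with 1 library left out (TGFBI and LUM were called with either ECsXAV library left out, 0 genes with either CPC library left out, and a lone library was assumed to vary like the other group). The 266 called over all genes became 20 without a filter, 152 at a mean of at least 5 FPKM and 59 to 159 with 1 library left out. The 5 called partners became 0 without a filter, 2 at a mean of at least 5 FPKM, 9 when short RNA genes were left out (an alternative chosen after seeing the data, with and without the block) and 0 to 4 with 1 library left out. The cause of these moves was not tested. A pseudocount of 0.1 added GPC1 and leaving out short RNA genes added FBN1, for 6 calls each. Median-of-ratios scaling, quantile normalization, no trend, isoform sums and a filter at a mean of at least 5 FPKM each gave 5.

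The groups share only the numbers 1 and 2, and nothing says that same-numbered cultures were grown together. Their deviations from the group means correlated at 0.356 by rank and 0.0349 by Pearson's r over 12398 genes, and at 0.376 and 0.183 over the 12086 left without short RNA genes. A fit with the replicate block called 176 genes in all, 4 of the 51 (without THBS4) and 4 partners (without HAS2 and SULF1, with IGFBP7). With short RNA genes left out as well, the block called 345 genes in all and 6 of the 51, THBS4 included (limma adjusted p = 0.00117), kept HAS2 and SULF1, and gave an adjusted p under 0.05 for 19 of the 34 and 1652 genes in all.

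Small log2 differences changed sign. FBN2 went to 0.036 with quantile normalization. With 1 library left out FBN2 ran from -0.36 to 0.088, FBLN2 from -0.013 to 0.32, THBS3 from -0.21 to 0.24, HAPLN3 from -0.33 to 0.13 and SDC2 from -0.22 to 0.012. Ratios of summed FPKM without the most abundant gene became 1.58 for matricellular genes, 0.772 for hyaluronan-binding genes and 0.879 for cell surface proteoglycans, which turned their direction, and 0.277 for adhesive glycoproteins, 0.340 for matrilins and 0.437 for small leucine-rich proteoglycans, which did not. Genes under 1 FPKM, such as DCN and SPP1, rest on few fragments, and FPKM give no counting error.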
